A study of Mus musculus with 6 samples.

Results

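The mitochondrial carrier family comprises membrane proteins that move metabolites between the cytosol and the mitochondrial matrix. The carriers were taken from a table of quadriceps RNA as every gene whose symbol starts with Slc25a, together with Ucp2 and Ucp3, which belong to the same family under older names. This rule uses names alone and found 46 genes of 37477 in the table, which stand for the family below. Ucp1 was left out. A carrier under an older symbol is missed, such as Slc25a51, present as Mcart1. RNA came from the quadriceps, a thigh muscle, of C57BL/6 mice aged 20 weeks. The controls were wild type (WT, 3 libraries). The other group was a muscle-specific knockout of the estrogen receptor ERα, which the study calls MERKO (KO, 3 libraries). The driver of the deletion, the sex of the mice and whether each library came from a separate animal go unstated in the labels. Each p-value therefore reflects library-to-library spread alone, and that spread may be technical.

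Carriers of this family are built from 3 repeats of a short membrane module, and most sit in the inner membrane, which is otherwise tight to charged solutes. In muscle the ADP/ATP and phosphate carriers feed ATP synthesis and export its product, the aspartate/glutamate and oxoglutarate/malate carriers bring reducing power from glycolysis into the matrix, and the carnitine carrier admits fatty acids for oxidation. Uncoupling proteins are relatives named for the proton leak of the founding member in brown fat. A few family members work elsewhere: Slc25a17 is peroxisomal, and Slc25a46 is an outer membrane protein of mitochondrial fusion.

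The libraries held 7388365 to 8560244 counts. Esr1, which encodes ERα, was counted 50, 41 and 44 times in WT and 22, 16 and 16 times in KO. Its log2 difference was -1.45 ± 0.23 (SE), with an adjusted p of 0.145 in edgeR's quasi-likelihood test, and no KO library reached any WT library. Reads of muscle cells and of cells that kept the gene cannot be told apart in whole tissue. All 8 skeletal muscle markers were present, whereas the cardiac genes Myl7, Nppa, Nppb and Tnni3 were at or under 0.402 CPM, counts scaled to a common library total. Myh6, listed with the cardiac genes and close in sequence to the slow myosin Myh7, had 2123 to 2606 CPM. Of the other listed cardiac genes, Sln was at 25.1 to 56.7 CPM, Actc1 at 7.23 to 12.5 CPM and Tnnt2 at 2.78 to 6.97 CPM. Tnnt2 had a log2 difference of -0.52 ± 0.24 (SE), with an edgeR adjusted p of 0.989 (unadjusted 0.0461). Marker sums spanned 268 to 355 CPM in WT and 288 to 330 CPM in KO for adipocytes, and 97.5 to 139 CPM against 133 to 140 CPM for macrophages. Fast-fibre markers had the higher estimate in KO for 8 of 10 genes, and 0 were called, beside 49.3% and 0% of all genes tested. Actn3 (log2 difference 1.38 ± 0.24, SE), Pvalb (0.87 ± 0.17), Myh1 (0.36 ± 0.11) and Myoz1 (0.31 ± 0.081) had every KO library above every WT library. Each of these 4 had an edgeR adjusted p of 0.989, with unadjusted values of 0.0011 to 0.0050, where 4.26% of all genes were under 0.05. Over all genes tested 4.96% had every KO library above every WT library, and 5.45% had every KO library below. Myh2, the most abundant of the list, had every KO library below WT (-0.15 ± 0.075, SE), and the list summed to 21413 to 22710 CPM in WT and 22524 to 23003 CPM in KO. Slow-fibre markers (8 genes) had the higher estimate in KO for 3 and the lower for 5, beside 49.3% and 50.7% of all genes. Of them 0 were called, beside 0% of all genes. Pln (-0.43 ± 0.11, SE) had every KO library below every WT library, with an edgeR adjusted p of 0.989 (unadjusted 0.0009). Tnni1 (0.17 ± 0.080, SE) was higher, with an edgeR adjusted p of 0.989 (unadjusted 0.0493). The slow list summed to 37437 to 44410 CPM in WT and 39755 to 43618 CPM in KO. Among single myosins Myh7 averaged 21746 CPM in WT and 21018 CPM in KO, Myh2 10380 and 9364 CPM, and Myh4 303 and 491 CPM. This myosin makeup was not compared with that of other quadriceps samples. The part of fibre type in the carriers' values was not tested. Whole tissue also leaves fewer cells of a type and less RNA per cell impossible to tell apart.

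No carrier passed an adjusted p of 0.05 between the genotypes, and the family's median difference was near 0. In edgeR's quasi-likelihood test 39 of the 46 carriers had enough reads to be tested, and 0 of them were called, where the background over all 13848 genes tested was also 0 (0%). Of the 39, 20 had a log2 difference above 0 and 19 below 0, beside 49.3% and 50.7% of all genes. The median log2 difference, KO minus WT, was 0.0015, against -0.0024 over all genes tested. At an unadjusted p under 0.05 there was 1 carrier, Slc25a34, where 4.26% of all genes passed. DESeq2 and limma voom also called 0 carriers, where DESeq2 called 0.0144% and voom 0.00722% of all genes. By both tools 0 carriers had an unadjusted p under 0.05, where 1.34% of all genes passed in DESeq2 and 4.3% in voom. In the authors' deposited table the adjusted p of every carrier was 1, and 0.0133% of its genes were under 0.05. Without a filter on low counts edgeR called 0.0793% of genes and 0 carriers.

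The intervals show how large a difference these libraries could still hold. For 37 of the 39 carriers the 95% interval lay within a 2-fold change in either direction, and for 31 within 1.5-fold. It lay within 1.3-fold for 13, among them Slc25a4, Slc25a3, Slc25a11 and Slc25a12, the carriers with the highest levels. The exceptions at 2-fold were Slc25a1 and Slc25a45, with means of 1.60 to 3.72 CPM in either genotype. The median interval half-width was 0.30 on the log2 scale, against 0.33 over all genes tested. Wide intervals were not confined to scarce carriers. Ucp3, at 29.9 RPKM (defined below), had an interval from -0.77 to 0.28, which was not within 1.5-fold. In the plot of differences by role, every role has carriers on both sides of 0.

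**Figure D1:**
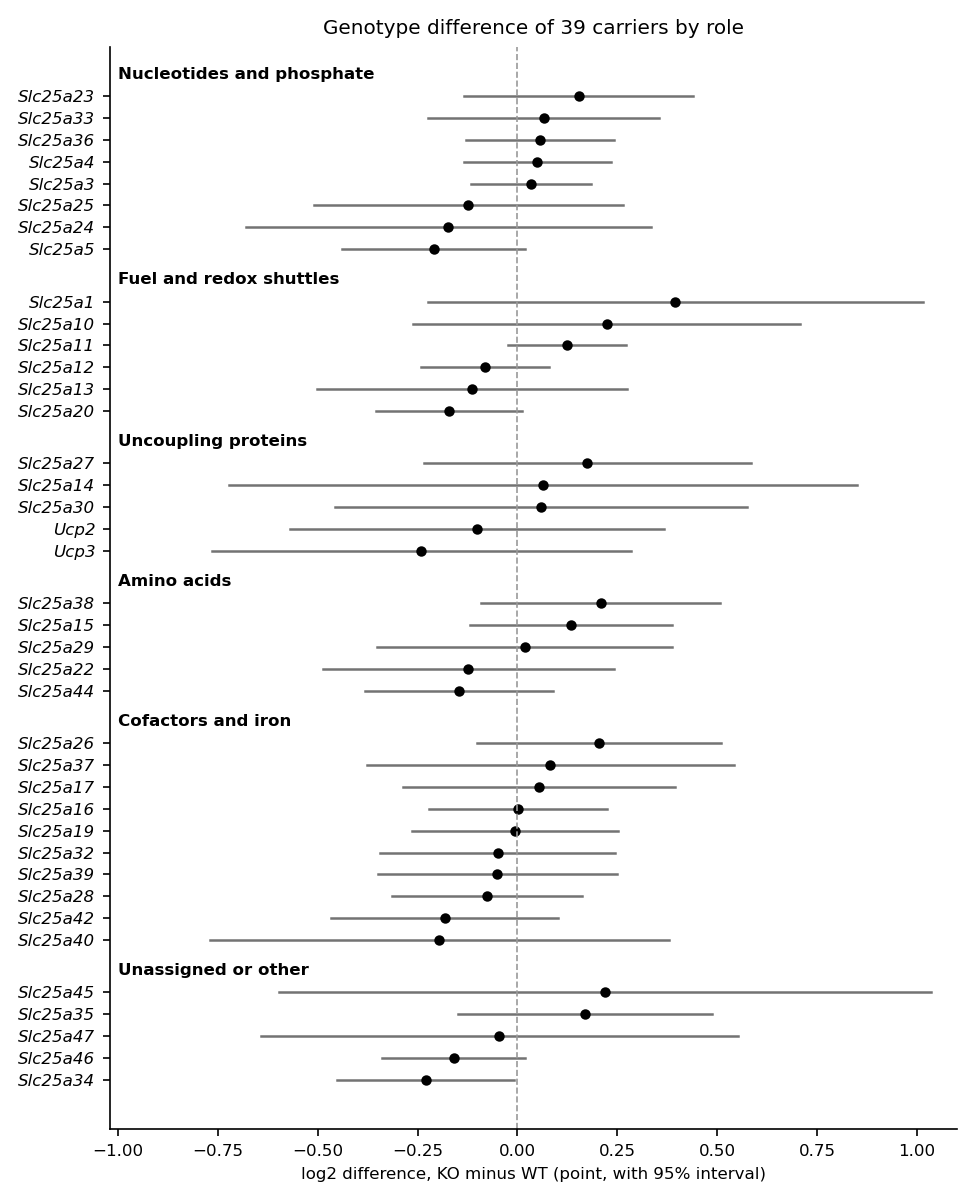
Log2 difference in level between KO and WT (x axis) for the 39 tested carriers, grouped by role; points are edgeR estimates from 3 libraries per genotype and lines are 95% intervals. Slc25a34 is the only carrier whose interval stays clear of 0, and its adjusted p was 0.989.

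The family's RNA was dominated by a single gene. Carriers together took 0.490% ± 0.024 (SD, n = 3) of all counts in WT and 0.502% ± 0.045 (SD, n = 3) in KO. Levels between genes are compared as RPKM, which here is CPM divided by the length of the gene's merged exons in kilobases. By this measure Slc25a4 made up 72.5% ± 0.72 (SD, n = 3) of the family's RNA in WT and 73.4% ± 1.76 (SD, n = 3) in KO. Slc25a4 stood at 1281 RPKM over the 6 libraries, Slc25a3 at 126, Slc25a11 at 92.4 and Slc25a12 at 37.2. These 4 carriers held 86.6% to 88.9% of the family's RPKM in each library.

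Below them Slc25a34 (35.5 RPKM), Ucp3 (29.9), Slc25a5 (26.1) and Slc25a20 (25.7) followed. From Slc25a12 to Slc25a20 each carrier overlapped its neighbour in this order over the 6 libraries, whereas Slc25a4, Slc25a3 and Slc25a11 each stood clear of the next. Slc25a46 came after a gap at 13.6 RPKM, and the other tested carriers ran from 9.10 RPKM for Slc25a33 to 0.429 RPKM for Slc25a40. Of the tested carriers 6 were under 1 RPKM, including Ucp2 and Slc25a37. Of the 7 carriers left untested, Slc25a18 and Slc25a2 had means of 0.386 and 0.213 RPKM. Slc25a41, Slc25a43 and Slc25a21 never exceeded 1 count in a library. Slc25a31, the ADP/ATP carrier known from testis, and Slc25a48 had 0 counts in all 6 libraries, which allows up to 3 counts per library and covers counting error only.

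**Figure D2:**
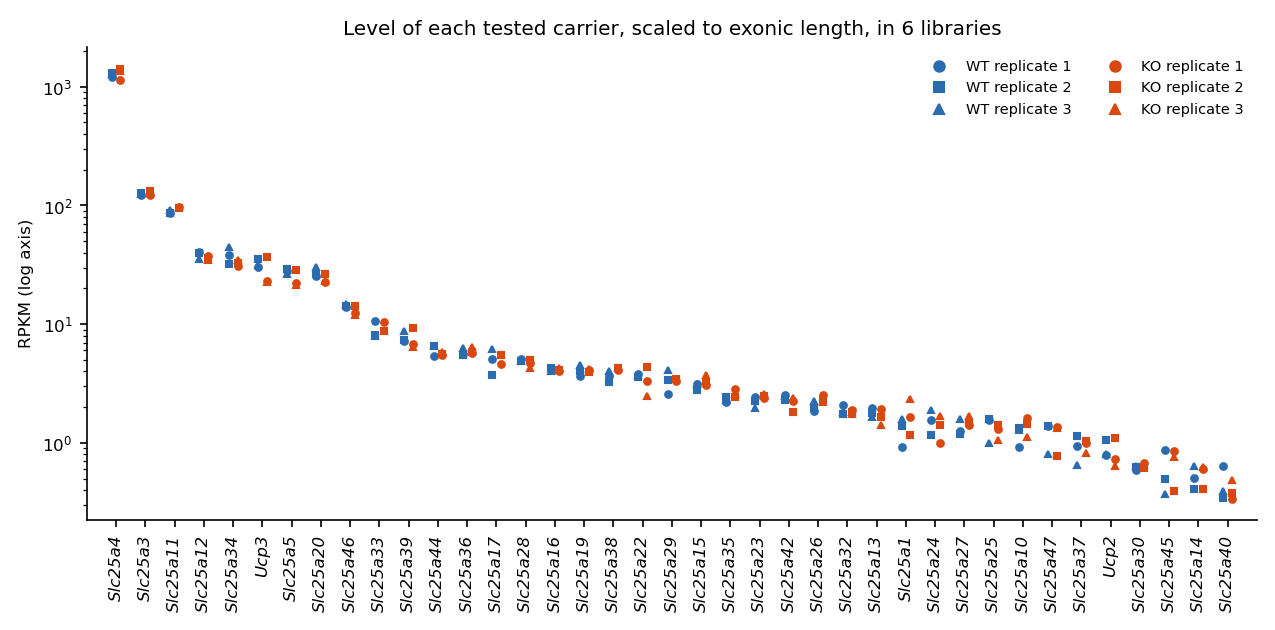
Level in RPKM (log axis) of each of the 39 tested carriers in the 6 libraries, ordered by mean; colours mark genotype and symbols the replicate. Slc25a4 at 1281 RPKM stands about a factor of 10 above Slc25a3 at 126 RPKM, and the WT and KO points of most carriers overlap.

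Nucleotide and phosphate carriers supply the substrates of ATP synthase. Of 10 genes with this role 8 were tested, 5 were higher and 3 lower in KO, and the median log2 difference was 0.04. Slc25a4, on chr8:46206797-46211284 (mm10, minus strand), encodes the ADP/ATP carrier of muscle and heart. Its level was 2842, 3054 and 2991 CPM in WT and 2673, 3353 and 3170 CPM in KO. The KO libraries surrounded the WT range, with KO replicate 1 the lowest of the 6 and KO replicate 2 the highest. The log2 difference was 0.05 ± 0.087 (SE), with a 95% interval from -0.13 to 0.23.

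Slc25a3, which brings phosphate into the matrix, was at 686, 704 and 688 CPM in WT and 678, 740 and 711 CPM in KO. Its KO libraries again spanned the WT range, and the log2 difference was 0.03 ± 0.071 (SE). Slc25a5, the ADP/ATP carrier of most other tissues, lies on chrX:36795651-36798807 (plus strand). It had 46.5, 48.3 and 43.5 CPM in WT and 36.6, 47.5 and 35.4 CPM in KO. KO replicates 1 and 3 were under every WT library and KO replicate 2 was inside their range. The log2 difference was -0.21 ± 0.11 (SE), with an edgeR adjusted p of 0.989 (unadjusted 0.071).

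The value of Slc25a5 carries a counting doubt. Of all 31-base stretches in its annotated transcripts, 49.4% also occur in transcripts of other genes, chiefly Gm5560 (30.4%), so reads could be split or lost in a way the sources used here do not describe. Gm5560 had 80, 97 and 94 counts in WT and 94, 95 and 86 in KO. For Slc25a4 and Ucp3 the share was 0%. Over the 46 carriers, 16 had no such stretch, 27 had under 10%, and 3 had 10% or more, namely Slc25a5, Slc25a35 (27.5%) and Slc25a33 (13.5%).

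The remaining nucleotide carriers were scarce. Slc25a33 and Slc25a36 carry pyrimidine nucleotides for mitochondrial DNA and RNA. Slc25a33 averaged 16.8 ± 2.87 CPM in WT and 17.6 ± 1.91 CPM in KO (n = 3 libraries each, SD). Slc25a36 averaged 55.5 ± 4.57 and 57.7 ± 3.36 CPM (n = 3 libraries each, SD). Both groups overlapped in each case. Slc25a25, a calcium-regulated carrier of ATP-Mg and phosphate, averaged 10.8 ± 2.58 CPM in WT and 9.90 ± 1.45 CPM in KO (n = 3 libraries each, SD), a log2 difference of -0.12 ± 0.18 (SE).

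Fuel and redox shuttle carriers link glycolysis and fatty acid supply to the matrix. Of 7 genes 6 were tested, with 3 higher and 3 lower in KO. Slc25a11, the oxoglutarate/malate carrier of the malate-aspartate shuttle, lies on chr11:70644196-70647479 (minus strand). It had 183.5, 184.5 and 194.1 CPM in WT and 205.8, 202.3 and 204.9 CPM in KO, so every KO library was above every WT library. The KO mean was 1.09 times the WT mean and the log2 difference 0.12 ± 0.07 (SE), with an interval from -0.02 to 0.27 and, in edgeR, an adjusted p of 0.989. Of its exonic length 8.92% overlaps another gene, Rnf167.

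Complete separation in that direction was found for 2 of the 39 tested carriers, Slc25a11 and Slc25a38, and over all genes tested for 4.96%. Separation with every KO library below WT was found for 0 carriers and for 5.45% of all genes. The carriers' counts were thus near or below the background.

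Slc25a12 (aralar) and Slc25a13 (citrin) exchange aspartate for glutamate in the same shuttle and are calcium-regulated. Slc25a12, the muscle form, had 294.8, 289.8 and 258.9 CPM in WT and 276.1, 267.3 and 253.8 CPM in KO, with overlapping groups and a log2 difference of -0.08 ± 0.076 (SE). Slc25a13, the liver form, averaged 6.85 ± 0.645 CPM in WT and 6.31 ± 1.01 CPM in KO (n = 3 libraries each, SD).

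Slc25a20, the carnitine/acylcarnitine carrier of fatty acid oxidation, had 123, 127 and 146 CPM in WT and 110.5, 128.4 and 112.8 CPM in KO. KO replicates 1 and 3 were below every WT library, and KO replicate 2 was inside the WT range. The log2 difference was -0.17 ± 0.086 (SE), with an interval from -0.35 to 0.01. Slc25a1, the citrate carrier that supplies carbon for lipid synthesis, had the largest estimate of the 39, 0.39 ± 0.29 (SE), at only 2.81 ± 0.727 CPM in WT and 3.72 ± 1.28 CPM in KO (n = 3 libraries each, SD). Its groups overlapped and its interval, from -0.22 to 1.01, was among the widest.

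The uncoupling proteins comprised 5 genes, all tested, with 3 higher and 2 lower in KO. Ucp3, the uncoupling protein of skeletal muscle, lies on chr7:100472990-100486432 (plus strand). It had 94.6, 111.3 and 98.5 CPM in WT and 72.2, 114.5 and 70.8 CPM in KO. KO replicates 1 and 3 were below all WT libraries, and KO replicate 2 was the highest of all 6. The log2 difference was the lowest of any tested carrier, -0.24 ± 0.21 (SE), with an interval from -0.77 to 0.28 and an edgeR adjusted p of 0.993.

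Ucp2 is the neighbour of Ucp3, 6.9 kb away on the same strand, and is known mainly from immune cells and many other tissues. It had 5.49, 7.38 and 5.58 CPM in WT and 5.09, 7.61 and 4.46 CPM in KO. The same library order was seen as for Ucp3, with replicate 2 the highest of each genotype. Ucp2 overlapped between groups, with a log2 difference of -0.10 ± 0.22 (SE). The sums of macrophage markers given above were 133 to 140 CPM in all 3 KO libraries, and their part in the level of Ucp2 was not tested.

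Amino acid carriers held 7 genes, of which 5 were tested, 3 higher and 2 lower. Slc25a44, a carrier of branched-chain amino acids and the most abundant of this role, averaged 22.2 ± 2.38 CPM in WT and 20.0 ± 0.584 CPM in KO (n = 3 libraries each, SD), a log2 difference of -0.15 ± 0.11 (SE). Slc25a38, which brings glycine in for heme synthesis, had 10.05, 9.03 and 11.0 CPM in WT and 11.2, 11.8 and 11.8 CPM in KO. Its groups did not overlap, and the log2 difference was 0.21 ± 0.14 (SE), with an interval from -0.09 to 0.51.

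Carriers of cofactors, iron and glutathione were 10 genes, all tested, with 4 higher and 6 lower and a median of -0.03. Slc25a39, a glutathione carrier and the highest of the role, had 19.7, 20.2 and 24.3 CPM in WT and 18.8, 25.5 and 17.8 CPM in KO. Its groups overlapped widely. Slc25a37 and Slc25a28 are the mitoferrins, which import iron. Slc25a37, the erythroid form, averaged 5.46 ± 1.46 CPM in WT and 5.76 ± 0.707 CPM in KO (n = 3 libraries each, SD), and Slc25a28 averaged 18.5 ± 0.347 and 17.5 ± 1.33 CPM (n = 3 libraries each, SD). Slc25a26, which imports S-adenosylmethionine for mitochondrial methylation, averaged 9.82 ± 0.905 CPM in WT and 11.3 ± 0.79 CPM in KO (n = 3 libraries each, SD), a log2 difference of 0.20 ± 0.14 (SE).

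Of 7 carriers without an assigned substrate or with another function, 5 were tested, 2 higher and 3 lower. Slc25a34, whose substrate is not settled, had 103, 85.5 and 118 CPM in WT and 81.8, 88.0 and 92.0 CPM in KO. WT replicate 2 was within the KO range, so the groups overlapped. The log2 difference was -0.23 ± 0.10 (SE), with an interval from -0.45 to -0.01, and edgeR's unadjusted p of 0.0434 became 0.989 after adjustment. The difference was -0.34 without WT replicate 2 and -0.11 without WT replicate 3. Slc25a46 had 75.3, 76.7 and 80.9 CPM in WT and 67.5, 76.5 and 64.5 CPM in KO, and KO replicate 2 was the only KO library inside the WT range. Its log2 difference was -0.16 ± 0.084 (SE).

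**Figure D3:**
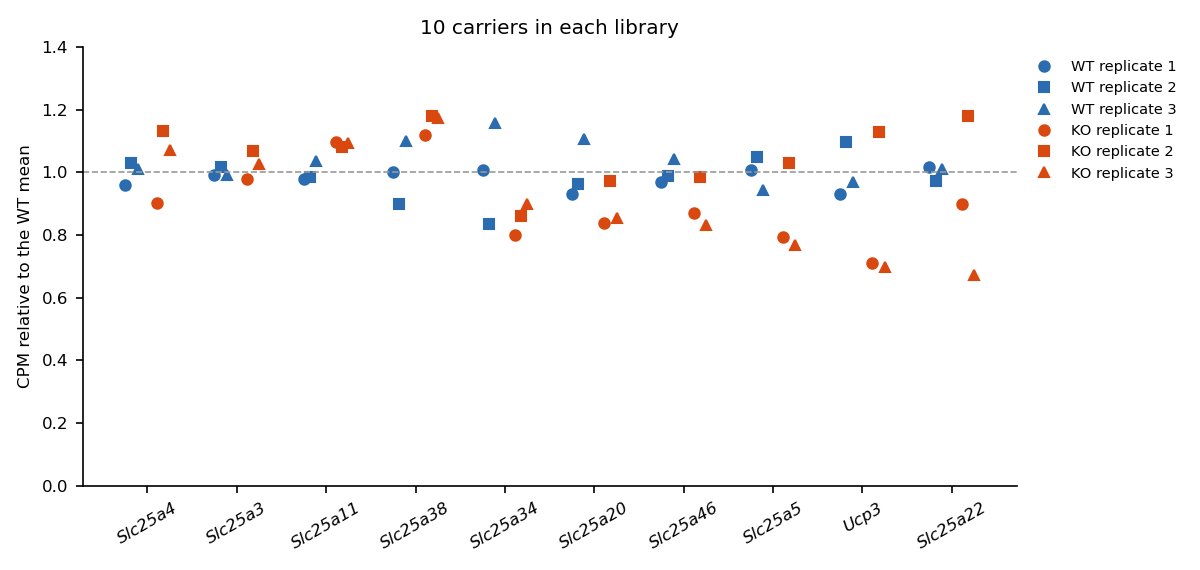
CPM of 10 carriers in each library, divided by the mean of the 3 WT libraries (y axis, dashed line at 1); colours mark genotype and symbols the replicate. For Slc25a20, Slc25a46, Slc25a5, Ucp3 and Slc25a22, KO replicate 2 lies within or above the WT points, while KO replicates 1 and 3 lie below all of them.

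KO replicate 2 set the size of several estimates. It had 1.60 times the mean of the other 2 KO libraries for Ucp3, 1.59 times for Ucp2, 1.39 times for Slc25a39 and 1.32 times for Slc25a5. Without it, 5 of 39 carriers had an unadjusted p under 0.05 in edgeR, against 6.35% of the 14100 genes then tested, and 0 carriers and 0% of genes had an adjusted p under 0.05. All 5 were lower in KO: Ucp3, Slc25a5, Slc25a20, Slc25a46 and Slc25a22, a mitochondrial glutamate carrier named here after its values were seen. Slc25a22 had 22.6, 21.6 and 22.4 CPM in WT and 20.0, 26.2 and 14.98 CPM in KO. Ucp3 then had a log2 difference of -0.50, with an interval from -0.70 to -0.31, and an edgeR adjusted p of 0.109 (unadjusted 4.42e-05), whereas without KO replicate 1 or 3 its difference was -0.13 or -0.12. For Slc25a5 the difference was then -0.35, for Slc25a22 -0.34, for Slc25a20 -0.24 and for Slc25a46 -0.23, with adjusted p values of 0.478, 0.704, 0.667 and 0.667 in edgeR. Leaving out any other library gave at most 1 carrier at this unadjusted threshold, where 3.42% to 5.59% of the genes then tested passed. With a library left out the difference of Slc25a22 ranged from -0.34 to 0.056. Over all genes KO replicate 2 was not the KO library furthest from the others. The chi-square per gene, larger where 2 libraries differ more, was 8.25 between KO replicates 1 and 2. It was 9.57 between KO replicates 1 and 3, 4.82 between 2 and 3, and 3.46 to 5.08 between WT libraries.

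KO replicate 2 also differed from the other KO libraries in erythroid markers. It lay within the WT range there, and KO replicates 1 and 3 lay below that range. Their sum was 1706 CPM in KO replicate 2 against 814 and 695 CPM in KO replicates 1 and 3, and 1009, 1730 and 1512 CPM in WT. The 4 globin genes among them carried nearly all of the sum, while Slc4a1 was at or under 0.483 CPM in every library. Schwann cell markers summed to 47.7 CPM in KO replicate 2 and to 67.3 and 85.6 CPM in the other KO libraries. Fast-fibre markers summed to 23003 CPM in it and to 22524 and 22686 CPM in the others. The part of these in the level of Ucp3 was not tested. Across the 39 carriers KO replicate 2 was the highest KO library for 14 and the lowest for 10, against 34.2% and 33.7% of all genes tested.

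**Figure D4:**
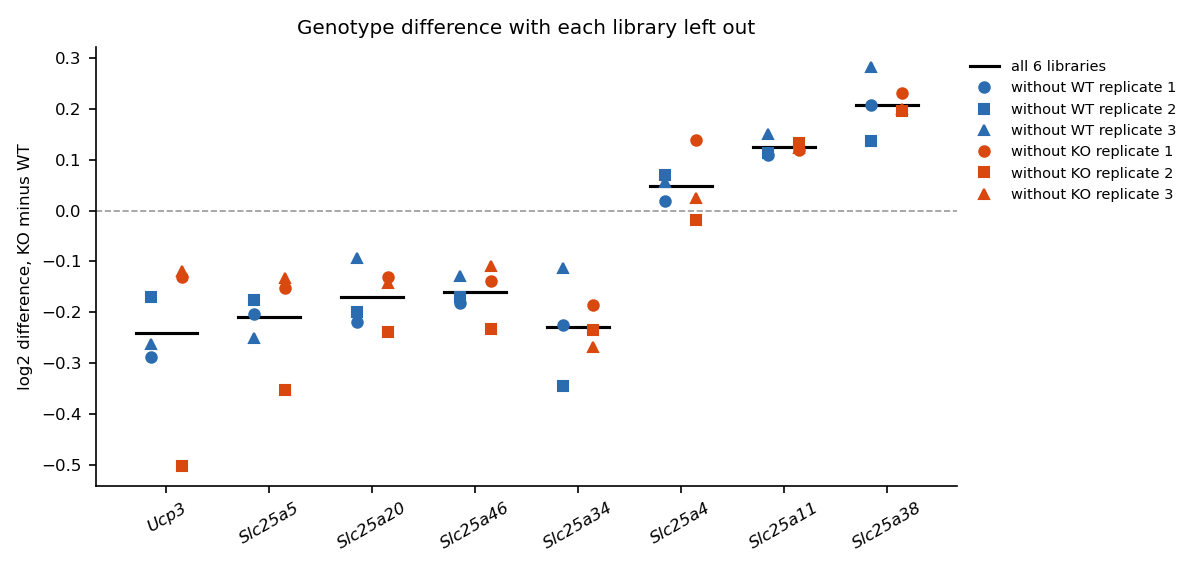
Log2 difference between KO and WT (y axis) for 8 carriers with all 6 libraries (black line) and with each library left out (points). Leaving out KO replicate 2 moved Ucp3 from -0.24 to -0.50 and Slc25a4 across 0 to -0.02, whereas Slc25a11 and Slc25a38 stayed above 0 throughout.

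Carriers that form close pairs offer a comparison within each library, because their ratio does not depend on scaling. For the 3 closest of 5 pairs the longest run of identical coding sequence is printed (mm10, GENCODE M21, 5′ to 3′ in the gene's sense), because a coding stretch longer than it differs between the partners.

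Slc25a4 and Slc25a5 (exon 2 of each, chr8:46209279-46209298 minus and chrX:36797053-36797072 plus): cagttctggcgctactttgc
Slc25a12 and Slc25a13 (across the junction of exons 11 and 12 in each, within chr2:71293723-71296683 and chr6:6096721-6109199, minus): ttctttggactgtaccgaggt
Ucp3 and Ucp2 (exon 5 and exon 6, chr7:100481894-100481917 and chr7:100498371-100498394, plus): aatgccattgtcaactgtgctgag

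These runs are 20, 21 and 24 bases long, and the aligned coding sequences are 77.6%, 70.8% and 74.0% identical. The mitoferrins Slc25a37 and Slc25a28 are 66.3% identical with a longest run of 15 bases, and Slc25a33 and Slc25a36 are 62.7% identical with a run of 11 bases. In length the family is uniform, with coding sequences of 795 to 1092 bases in 40 carriers. The other 6 are Slc25a12, Slc25a13, Slc25a23, Slc25a24, Slc25a25 and Slc25a46, at 1254 to 2031 bases. The calcium-regulated carriers are among these, and Slc25a12 and Slc25a13 are known for a long calcium-binding region ahead of the carrier domain.

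The ratio of Slc25a4 to Slc25a5, in RPKM, was 42.8, 44.3 and 48.1 in WT and 51.1, 49.4 and 62.6 in KO. Every KO library was above every WT library, and the means were 45.1 ± 2.76 and 54.4 ± 7.19 (n = 3 libraries each, SD). With 3 against 3 libraries the smallest p of an exact two-sided permutation test is 0.1, which this ratio reached, and over the 5 ratios the adjusted p of the exact test was 0.5. The shared stretches of Slc25a5 described above bear on this ratio, and their part was not tested.

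The ratio of Ucp3 to Ucp2 was 37.1 ± 3.08 in WT and 33.5 ± 1.90 in KO (n = 3 libraries each, SD), with an exact permutation p of 0.2 and an adjusted p of 0.5. Slc25a12 exceeded Slc25a13 by a factor of 21.3 ± 0.834 in WT and 22.0 ± 2.60 in KO (n = 3 libraries each, SD), with an exact permutation p of 0.7. Slc25a37 stood at 0.184 ± 0.049 of Slc25a28 in WT and 0.204 ± 0.011 in KO (n = 3 libraries each, SD), exact permutation p = 0.6. Slc25a33 stood at 1.55 ± 0.337 times Slc25a36 in WT and 1.55 ± 0.237 in KO (n = 3 libraries each, SD), exact permutation p = 1. Within both genotypes the muscle isoform of each of the first 3 pairs was the abundant partner in every library.

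**Figure D5:**
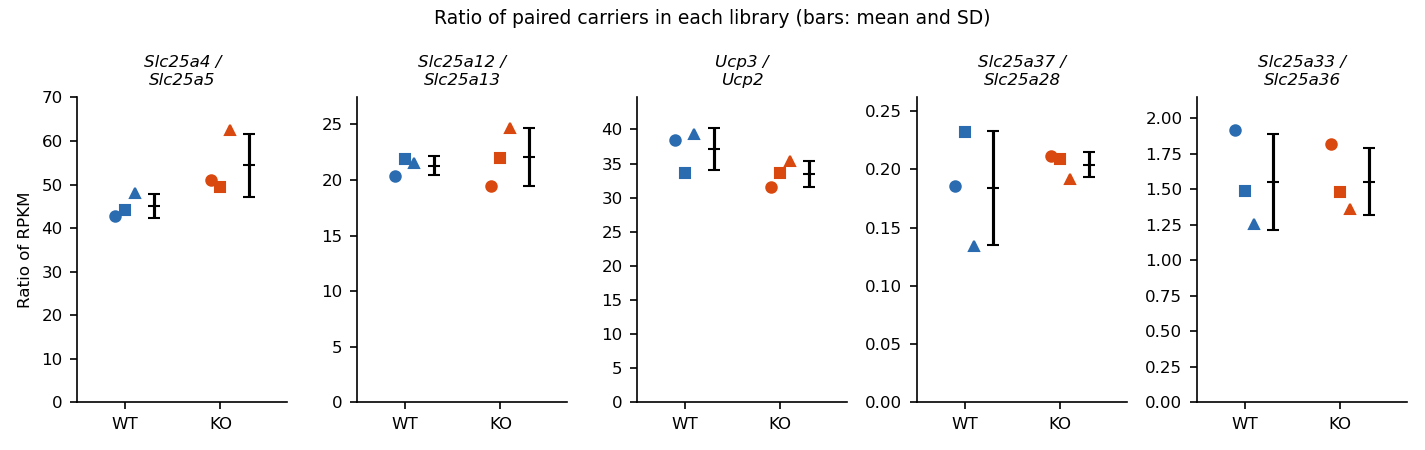
Ratio of RPKM within 5 carrier pairs (y axis from 0, 1 panel per pair) in each of the 6 libraries, with the mean and SD of 3 libraries as bars. Only the ratio of Slc25a4 to Slc25a5 shows all KO points above all WT points, at 49.4 to 62.6 against 42.8 to 48.1.

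Genes that work with the carriers gave no call either, where edgeR called 0% of all 13848 genes tested. At an unadjusted p under 0.05 the share of all genes was 4.26%, and 49.3% of all genes were higher and 50.7% lower in KO. A list of 23 other mitochondrial membrane genes held the pyruvate carrier, the calcium uniporter complex, sideroflexins, Mtch1, Mtch2 and others. It also held Slc25a51, the carrier that the name rule missed. Of the 23, 12 were higher and 11 lower in KO and 0 were called in edgeR, with 1 at an unadjusted p under 0.05. That gene was Smdt1, the essential regulator subunit of the calcium uniporter, at 37.1, 36.0 and 32.2 CPM in WT and 37.6, 39.8 and 43.8 CPM in KO. The lowest KO library was just above the highest WT library, a separation also found for 4.96% of all genes tested. The log2 difference of Smdt1 was 0.20 ± 0.096 (SE), with an edgeR adjusted p of 0.989. Sfxn4, a sideroflexin, had a difference of 0.46 ± 0.27 (SE), and Mpc2, a pyruvate carrier subunit, 0.13 ± 0.078 (SE).

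Of 13 enzymes that partner the shuttle carriers 12 were tested, 8 higher and 4 lower, and 0 were called, beside 0% of all genes. At an unadjusted p under 0.05 there were 0, beside 4.26% of all genes. Cpt1a, among the enzymes that make acylcarnitines, which Slc25a20 carries, had 21.6, 21.7 and 21.9 CPM in WT and 19.2, 19.0 and 18.2 CPM in KO. All KO libraries were below WT, a separation also found for 5.45% of all genes tested. The log2 difference of Cpt1a was -0.21 ± 0.10 (SE), with an edgeR unadjusted p of 0.0569. Cpt1b, also on this list, went the other way, with a log2 difference of 0.21 ± 0.23 (SE). It had 3.35, 3.97 and 4.06 CPM in WT and 3.43, 5.07 and 4.70 CPM in KO, with overlapping groups. Got1, the cytosolic aspartate aminotransferase, had 351.6, 377.7 and 394.9 CPM in WT and 311.6, 398.0 and 310.3 CPM in KO, with KO replicate 2 again apart from the other KO libraries. Mdh2, the matrix malate dehydrogenase, had a difference of 0.10 ± 0.076 (SE).

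Of 13 phosphate and nucleotide partners 12 were tested, 8 higher and 4 lower, and 0 were called, beside 0% of all genes. At an unadjusted p under 0.05 there was 1, beside 4.26% of all genes. Hk2, the muscle hexokinase that binds the mitochondrial surface, had 694.4, 664.3 and 634.3 CPM in WT and 549.4, 663.0 and 474.1 CPM in KO. KO replicate 2 alone overlapped WT, and the log2 difference was -0.24 ± 0.10 (SE), with an edgeR adjusted p of 0.989 (unadjusted 0.0369). Ckmt2, the mitochondrial creatine kinase that works beside Slc25a4, had a difference of 0.13 ± 0.082 (SE), and Vdac1, the main outer membrane channel, 0.11 ± 0.075 (SE).

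Promoters were searched because ERα and its relatives bind variants of the hexamer AGGTCA. RefSeq (GRCm38.p6) held 45 promoters for 36 of the 46 carriers, each from 250 bases before to 50 after the start. AGGTCA on either strand was present in 5 of the 45 (11.1%), against 16.3% of 32851 promoters. The estrogen response element, GGTCA and its reverse complement TGACC with 3 bases between, was in 0 carrier promoters and in 0.0700% of all promoters. CCGGAAG, an ETS factor core, was in 6 (13.3%, against 8.86%), and CACGTG, an E-box, in 8 (17.8%, against 7.15%). These 8 belong to 7 of the 36 carriers, because overlapping windows of Slc25a14 hold the same CACGTG. TCAAGGTCA, which holds AGGTCA, and AGGTCA repeated after 1 base were in 0 carrier promoters and in 0.423% and 0.0396% of all. The shares are of letters in a window and say nothing of binding.

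The carriers with the lowest unadjusted p (Slc25a34) and the lowest estimate (Ucp3) were 2 of the 5 with an AGGTCA match, and the 250 bases before their starts are printed with each match in capitals, TGACCT being the reverse complement.

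Slc25a34 (GRCm38.p6, chr4:141623835-141624084, minus strand): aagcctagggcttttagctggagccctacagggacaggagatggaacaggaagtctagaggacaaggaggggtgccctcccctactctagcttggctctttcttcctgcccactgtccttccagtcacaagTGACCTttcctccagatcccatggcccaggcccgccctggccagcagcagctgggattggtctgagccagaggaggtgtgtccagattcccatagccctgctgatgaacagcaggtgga
Ucp3 (GRCm38.p6, chr7:100472741-100472990, plus strand): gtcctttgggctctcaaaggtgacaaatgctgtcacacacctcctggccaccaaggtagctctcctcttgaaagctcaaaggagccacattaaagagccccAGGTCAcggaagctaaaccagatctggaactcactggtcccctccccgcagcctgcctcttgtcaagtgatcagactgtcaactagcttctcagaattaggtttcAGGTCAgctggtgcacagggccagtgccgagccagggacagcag

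The match of Slc25a34 begins 119 bases before the start, and those of Ucp3 begin 149 and 44 bases before it. The other carriers with a match were Slc25a39, Slc25a45 and Slc25a47, whose log2 differences were -0.05, 0.22 and -0.05, so the 5 genes lay on both sides of 0.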

How the data were processed

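Quadriceps RNA libraries were made with an Illumina TruSeq RNA kit, per the labels' protocols, and TopHat 1.3.3, edgeR and mm10 are named in the submitters' processing notes. Neither the read counter with its annotation nor the handling of multi-mapped reads is stated there. The authors deposited counts per gene for the 6 libraries, together with their own log2 fold changes, log2 CPM and p-values from a comparison of the genotypes, which are quoted only where named. The table has 37506 rows, of which 29 repeated an Ensembl identifier with identical counts and were merged.

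Counts were fitted with edgeR 4.0.16 in R 4.3.3 (filterByExpr, TMM, robust quasi-likelihood F-test, two-sided, genotype only, Benjamini-Hochberg over 13848 genes, threshold 0.05). CPM use TMM-scaled totals, and RPKM divide them by GENCODE M21 exonic length. The script was tested on simulated data. Ratios were compared with exact permutation tests. DESeq2 1.42.0, limma 3.58.1 and other scalings and filters were alternatives. Sequence stretches of 31 bases were compared over GENCODE M21 transcripts. The 3 partner lists and the marker lists, like the carriers, were chosen with earlier results of these data known. Values were given in full for 15 chosen carriers, the most abundant of each role, the 4 higher and 4 lower carriers of smallest unadjusted p, and the 3 such genes of each partner list. Slc25a22, Slc25a45 and Slc25a47 were named after their values were seen, as were Cpt1b and the levels of Myh7, Myh2 and Myh4. Of the erythroid markers, 1 is not reported here. Intervals cover the spread between libraries, and floors cover counting error only.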

Additional observations from a re-analysis of the deposited data

How the results depend on the processing

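Under 3 other scalings, 2 other filters, a replicate block, DESeq2, limma voom, the authors' deposited adjusted p and each library left out, 0 carriers were called, and 0 genes of the partner lists were called where tested. The lowest adjusted p of any carrier under these 14 refitted settings was 0.109. The authors' adjusted p was applied to the partner lists after seeing the data. Without the filter edgeR called 19 of 23953 genes (0.0793%), none of them a carrier. Among the other edgeR refits only that without WT replicate 1 called any gene, 3 of 14199. The median log2 difference ranged from -0.0128 to 0.0236 with a library left out. With a library left out, the log2 difference of the ratio of Slc25a12 to Slc25a13 ranged from -0.039 to 0.13, of Slc25a37 to Slc25a28 from -0.026 to 0.37 and of Slc25a33 to Slc25a36 from -0.13 to 0.18. Single carriers that changed sign were Slc25a4 (-0.018 to 0.14), Slc25a33 (-0.029 to 0.21), Slc25a37 (-0.11 to 0.27), Ucp2 (-0.36 to 0.048) and Slc25a39 (-0.23 to 0.053), while the other 16 of the 21 named kept theirs. Slc25a22, which is outside these 21, also changed sign (-0.34 to 0.056). None of the 21 changed sign under the 8 settings that kept all libraries. Deviations of log CPM from the group mean correlated at -0.0146, 0.159 and 0.0377 between same-numbered libraries of the 2 genotypes. Between differently numbered libraries the values ran from -0.170 to 0.141, so the numbers were not taken as pairs. With the replicate block edgeR called 0 carriers and 0 of all 13848 genes, and the lowest adjusted p of a carrier was 0.908. At an unadjusted p under 0.05 in that fit there were 3 carriers (Slc25a34, Slc25a5 and Ucp3), where 4.95% of all genes passed. Removing a trend with gene length gave a median of -0.0020. At these totals Slc25a1 and Slc25a45 could hold a 2-fold difference, and in the 7 untested carriers no difference was detectable.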
